A study of Drosophila sechellia and Drosophila simulans with 8 samples.

Results

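The heat shock proteins and chaperones were followed in the bodies of adult females of Drosophila sechellia and Drosophila simulans. The set names 10 genes, and its members are the probe sets whose only gene symbol in the probe annotation is one of these. By that rule 7 of the 10 genes were measured, by 9 of the 18952 probe sets on the array: Hsp26, Hsp27, Hsp60A, Hsp68, Hsc70-3 and Hsc70-4 with 1 probe set each and l(2)efl with 3. Hsp22 is on 2 probe sets that also carry the symbol CG4456, so it has no value by the rule. No probe set carries the symbol Hsp23 or Hsp83 in the annotation used, so these genes were not analysed here. All 9 probe sets were bright enough to be tested.

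RNA was measured on 8 Affymetrix arrays of D. melanogaster probe sets, 2 in each of 4 groups: D. sechellia without choice, D. sechellia with choice, D. simulans without choice and D. simulans with choice, where the choice concerned a mix of octanoic and hexanoic acid. Flies of all groups were reared at 25 °C on food of yeast and cornmeal, and no strain, age or exposure time is given in the sources used here. D. sechellia lives on Morinda citrifolia fruit, a source of these acids, while D. simulans feeds broadly. The 2 arrays of a group carry only a number, with no statement that separate flies were used, so the spread behind the p-values is that between these samples and may be technical. Signals of both species come from probes made for D. melanogaster, and a sequence mismatch and a lower RNA level cannot be told apart in them. In RNA of bodies, fewer cells of a type and less RNA per cell cannot be told apart.

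Chaperones bind proteins that are not yet folded or have lost their fold. The small heat shock proteins hold such clients without ATP, the Hsp70 family binds and releases them in a cycle driven by ATP, and chaperonins enclose them in a chamber. Some members are made at all times and are called cognates, and others are induced by heat and other stress through the factor Hsf. In Drosophila ovaries, small heat shock genes are also active during normal oogenesis.

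One array, number 1 of sechellia choice, stood apart. It correlated at 0.712 to 0.720 with the remaining sechellia arrays, and arrays of each other group at 0.963 to 0.969. Its log2 signals had an SD of 1.39, and those of the others 2.06 to 2.15. The median of its Bacillus control probe sets, which match no fly RNA, was 128.85, against 12.3 to 28.1. Most bright members read lower on it and the dimmest l(2)efl probe set higher. Most results are given both with 8 arrays and without that array, as 7 arrays, and some with 7 alone or 8 alone. In the fit of 7, array 2 alone stands for sechellia choice and its spread is taken to be that of the other groups.

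The labelled tissue was checked against marker genes, by the sum of their signals on each array. Yolk, vitelline membrane and chorion genes, 13 of the 14 listed, summed to 115572 and 130437 in sechellia no choice, 204256 and 235268 in simulans no choice, 198585 and 200693 in simulans choice, and 87363 on array 1 and 186072 on array 2 of sechellia choice. These female markers were thus lower in sechellia than in simulans without choice, and 5 digestive enzyme genes were lower too, at 3937 and 3789 against 45579 and 51881. With choice the digestive genes summed to 7144 on array 1 and 8870 on array 2 of sechellia, and to 52566 and 52490 in simulans. Muscle markers, 8 of 10 listed, summed to between 36516.6 and 40565.2 on the 7 arrays without array 1 of sechellia choice, and to 20660.5 on it. Male reproductive markers, 14 of 15 listed, summed to between 708.5 and 1106.6 on the 7 arrays and 5305 on array 1, and 6 of 14 head and eye markers to between 388.2 and 952.4 and to 3701. Of the 14 male markers, 4 were at or below the Bacillus median on both arrays in sechellia no choice and 2 in each other group. Only dj was among them in every group, and the remaining male markers read above that median on at least 1 array. The part of these tissues in the results below was not tested.

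Across the 7 arrays the members that were bright varied little. Hsp60A, the mitochondrial chaperonin, spanned a range of 1.10-fold from its lowest to its highest signal, and 7 of the 9 probe sets spanned between 1.10- and 1.33-fold. The exceptions were both dim: Hsp68, an inducible Hsp70-family gene, spanned 9.90-fold and one l(2)efl probe set 2.48-fold. No member was called at an adjusted p below 0.05 in any of the 6 comparisons with 8 arrays (limma, Benjamini-Hochberg adjustment over 13138 probe sets). Of all tested probe sets, between 0.00761% and 9.87% were called in these comparisons. With 7 arrays 2 members were called, both between the species without choice, where 28.2% of all were called.

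**Figure D1:**
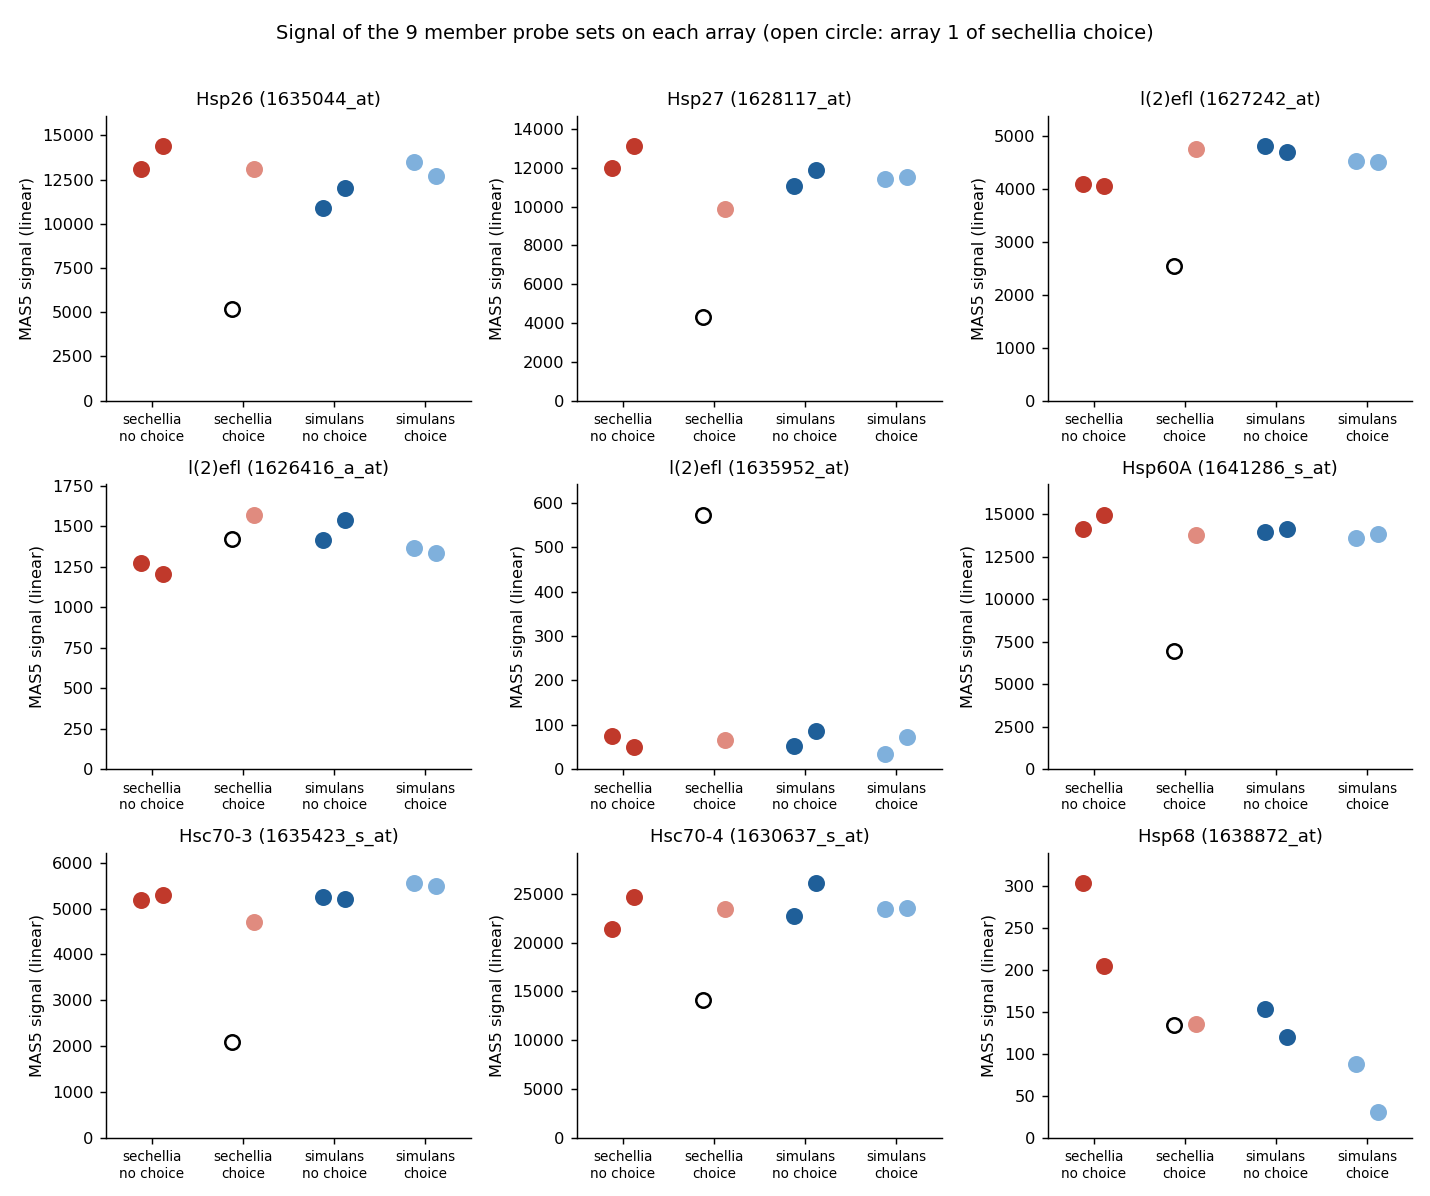
Deposited MAS5 signal, on a linear axis from 0, of the 9 member probe sets on each of the 8 arrays, by species and choice; each circle is 1 array and the open circle is array 1 of sechellia choice. Apart from that array, the signals of Hsp60A lie between 13597 and 14987 and those of Hsp68 between 30.6 and 302.8.

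Among the small heat shock proteins, Hsp26, a cytoplasmic chaperone of the alpha-crystallin type, read 13124.6 and 14389.0 in sechellia no choice and 10919.8 and 12031.4 in simulans no choice. With choice it read 13087.5 on array 2 and 5204.8 on array 1 of sechellia, and 13492.0 and 12708.0 in simulans. The no choice groups do not overlap and sechellia is higher, while array 2 of sechellia choice lies between the simulans choice arrays. Without choice Hsp26 was higher in sechellia by log2 0.26 ± 0.08 (SE, n = 2 arrays per group) with 7 arrays (limma adjusted p = 0.035), a difference of 1.20-fold. With 8 arrays the same difference had an SE of 0.44 and an adjusted p of 0.91. With choice it was -0.00 (95% interval -0.22 to 0.22) with 7 arrays and -0.67 (-1.69 to 0.36) with 8.

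Hsp27, a small heat shock protein that is found in the nucleus and in the ovary of D. melanogaster, read 11980.7 and 13111.1 in sechellia no choice and 11048.1 and 11861.8 in simulans no choice. In simulans choice it read 11431.5 and 11520.9, and in sechellia choice 9881.6 on array 2 and 4307.4 on array 1. Both sechellia choice arrays are thus below all other arrays. With 7 arrays Hsp27 was lower with choice in sechellia by log2 -0.34 ± 0.09 (95% interval -0.54 to -0.15), at a limma adjusted p of 0.083, which does not pass the threshold. It passed after quantile normalisation of the 7 arrays, at -0.37 (adjusted p = 0.0027), and after their median centring, at -0.46 (adjusted p = 0.043). With 8 arrays the sechellia change was -0.94 ± 0.41 (limma adjusted p = 0.35). In simulans the same change was 0.00 (-0.16 to 0.16) with 7 arrays. The interaction, the sechellia choice effect less the simulans one, was -0.35 ± 0.11 with 7 arrays (adjusted p = 0.16) and, after quantile normalisation of these, -0.40 (adjusted p = 0.0085). Between the species with choice, Hsp27 differed by -0.22 ± 0.09 (adjusted p = 0.12) with 7 arrays and -0.81 ± 0.41 (adjusted p = 0.25) with 8, and passed with 8 after quantile normalisation, at -0.36 (adjusted p = 0.030), and after cyclic loess, at -0.34 (adjusted p = 0.019).

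The gene l(2)efl, named as essential for life in D. melanogaster, encodes another protein of the alpha-crystallin family. Its brightest probe set, 1627242_at, read 4090.0 and 4063.2 in sechellia no choice, 4808.4 and 4691.3 in simulans no choice, 4525.3 and 4503.5 in simulans choice, and 4762.1 on array 2 and 2547.4 on array 1 of sechellia choice. Without choice the groups do not overlap and sechellia is lower. The difference was log2 -0.22 ± 0.06 with 7 arrays (limma adjusted p = 0.026), which is 1.17-fold, and the SE was 0.29 with 8 (adjusted p = 0.87). The call was lost after median centring of the 7 arrays, at -0.19 (adjusted p = 0.067).

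The probe set 1626416_a_at of l(2)efl read 1273.0 and 1204.6 in sechellia no choice, 1413.3 and 1536.1 in simulans no choice, 1366.6 and 1331.5 in simulans choice, and 1419.0 on array 1 and 1570.3 on array 2 of sechellia choice. It is the only member whose array 1 signal lay within 1.11-fold of array 2 apart from Hsp68, at 1.01-fold. Without choice it differed by -0.25 ± 0.08 with 7 arrays (adjusted p = 0.052), close to the value of the brightest probe set. In sechellia its change with choice was 0.34 ± 0.10 (adjusted p = 0.13) with 7 arrays and 0.27 ± 0.16 (adjusted p = 0.37) with 8. The brightest probe set changed by 0.22 ± 0.07 (adjusted p = 0.17) with 7 arrays and -0.23 ± 0.29 with 8, so the sign there depends on array 1. The dimmest l(2)efl probe set, 1635952_at, read between 34.8 and 86.3 on the 7 arrays, and 573.4 on array 1. Its groups overlap in all 4 comparisons of a pair of groups, and with 8 arrays its species difference with choice, 1.96 (95% interval -0.40 to 4.31), rests on array 1, being 0.39 (-1.17 to 1.96) without it.

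In the Hsp70 family, Hsc70-4 is the main cytosolic cognate, which also strips clathrin from vesicles. It read 21366.1 and 24653.9 in sechellia no choice, 22712.6 and 26087.6 in simulans no choice, 23410.7 and 23549.6 in simulans choice, and 23478.6 on array 2 and 14112.3 on array 1 of sechellia choice. The groups overlap in all 4 comparisons. Averaged over treatments the species differed by log2 -0.04 (95% interval -0.21 to 0.12) with 7 arrays and -0.23 (-0.97 to 0.52) with 8 (limma adjusted p = 0.70 and 0.68). With 7 arrays this interval leaves room for a difference of up to 1.15-fold. After quantile normalisation of the 7 arrays Hsc70-4 passed, at -0.08 (adjusted p = 0.022), a value inside that interval, and so did its difference with choice, at -0.13 (adjusted p = 0.030).

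Hsc70-3, the Hsp70 cognate of the endoplasmic reticulum known as BiP, read 5184.8 and 5298.6 in sechellia no choice and 5243.5 and 5199.6 in simulans no choice. With choice it read 5555.5 and 5494.7 in simulans, and 4701.8 on array 2 and 2090.3 on array 1 of sechellia. The no choice groups overlap, and with choice both sechellia arrays are below both simulans arrays. The species difference was 0.01 (95% interval -0.13 to 0.14) without choice and -0.23 (-0.40 to -0.07) with choice in the fit of 7 arrays, the latter at a limma adjusted p of 0.059. It passed after quantile normalisation of the 7 arrays, at -0.21 (adjusted p = 0.030), and after their median centring, at -0.28 (adjusted p = 0.044). With 8 arrays it was -0.82 ± 0.35 (adjusted p = 0.21). The interaction was -0.24 ± 0.09 (adjusted p = 0.25) with 7 arrays and -0.82 ± 0.50 (adjusted p = 0.64) with 8.

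Hsp68, which in D. melanogaster is made after heat shock, was dim. It read 302.8 and 204.3 in sechellia no choice, 134.0 and 135.4 in sechellia choice, 153.6 and 119.6 in simulans no choice, and 88.1 and 30.6 in simulans choice. Sechellia was higher than simulans in both treatments and choice lower than no choice in both species, in each case without overlap of the groups. None of these differences passed the threshold. Averaged over treatments the species difference was log2 1.13 ± 0.42 with 8 arrays (limma adjusted p = 0.15) and 1.13 ± 0.38 with 7 (adjusted p = 0.053), in size 2.18-fold and 2.19-fold. It passed with the replicate number as a block in the fit of 7 arrays, at 1.33 (adjusted p = 0.010), and so did the difference with choice, at 1.79 (adjusted p = 0.035), while the difference without choice passed in a fit of only the 4 arrays compared, at 0.88 (adjusted p = 0.049). The replicate numbers are not taken as pairs, and with 7 arrays the block is unbalanced, so it moved the estimates themselves. The fit of only the 4 arrays compared called 26.5% of all tested probe sets without choice. The change of Hsp68 with choice was -0.88 ± 0.59 in sechellia and -1.38 ± 0.59 in simulans with 8 arrays (limma adjusted p = 0.40 and 0.9999). Without array 2 of simulans choice, the lowest, the averaged species difference was 0.74 and the simulans choice effect -0.62. Array 1 of sechellia choice, where the Bacillus controls had a median of 128.85, read Hsp68 at 134.0, close to that median.

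Hsp60A, the chaperonin of the mitochondrial matrix, read 14171.4 and 14987.4 in sechellia no choice and 13965.6 and 14125.1 in simulans no choice. With choice it read 13596.7 and 13878.5 in simulans, and 13815.5 on array 2 and 6984.7 on array 1 of sechellia. Averaged over treatments the species differed by log2 0.03 (95% interval -0.08 to 0.14) with 7 arrays and by -0.22 (-0.86 to 0.43) with 8 (limma adjusted p = 0.68 and 0.65). The choice effect with 7 arrays was -0.08 (-0.25 to 0.10) in sechellia and -0.03 (-0.17 to 0.11) in simulans. With 7 arrays the bound of the species difference is 1.10-fold. The probe sets of Hsp60A, Hsc70-3 and Hsc70-4 are of the type that can match more than 1 transcript, although the annotation lists 1 gene for each.

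**Figure D2:**
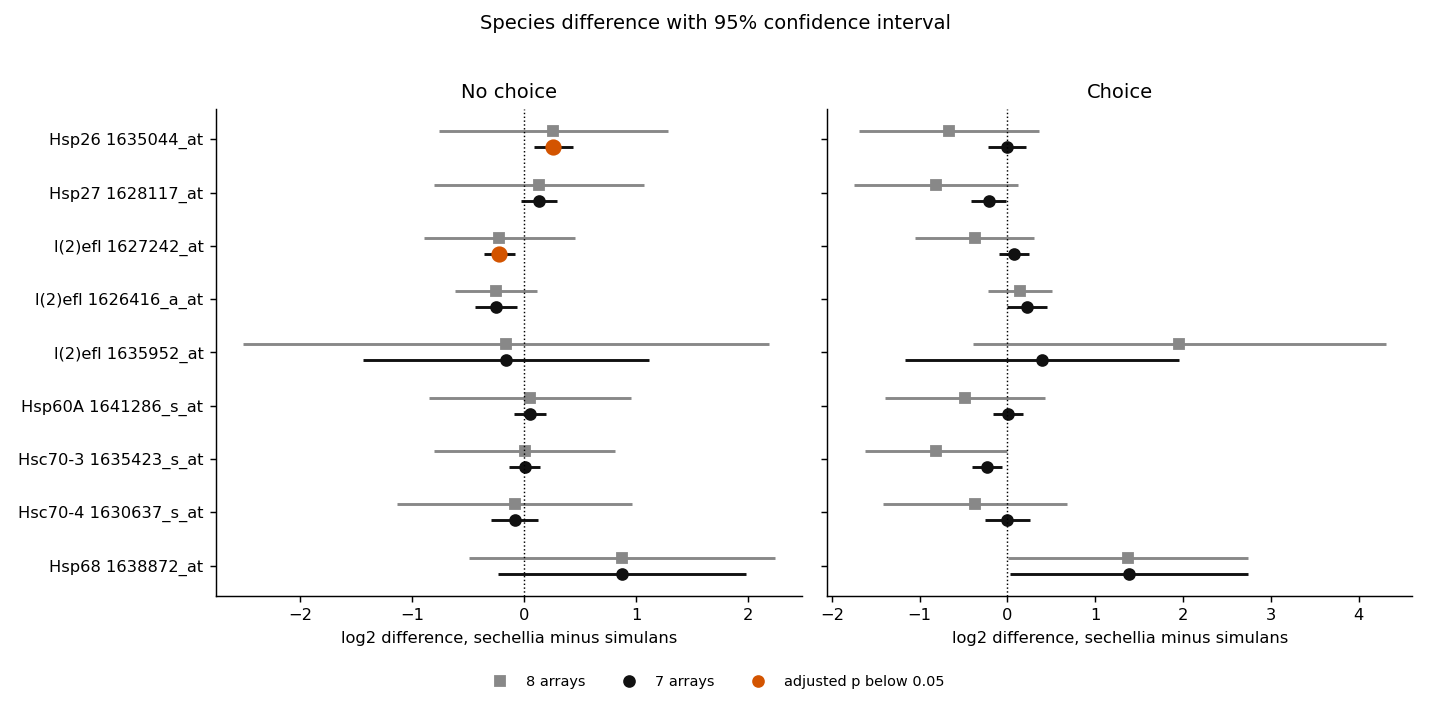
Log2 species difference, sechellia minus simulans, of the 9 member probe sets without choice (left) and with choice (right), with 95% intervals from limma; squares are the fit of 8 arrays and circles that of 7, and orange marks an adjusted p below 0.05. Only Hsp26 (0.26) and l(2)efl 1627242_at (-0.22) without choice are marked, both with 7 arrays.

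Counted together, 0 of 9 member probe sets differed between the species averaged over treatments with 8 arrays, where limma called 9.87% of all tested probe sets; 1 of 9 had an unadjusted p below 0.05, as had 24.6% of all. Without choice it called 0 of 9 (4.22% of all) and with choice 0 of 9 (4.14% of all); 0 and 2 of 9 had an unadjusted p below 0.05, against 15.3% and 23.5% of all. With 7 arrays it called 0 of 9 averaged over treatments (32.5% of all), 2 of 9 without choice (28.2% of all) and 0 of 9 with choice (19.4% of all). Unadjusted p-values below 0.05 were found for 2, 3 and 3 of 9 in these comparisons, against 42.0%, 38.2% and 31.6% of all. The 2 calls without choice were 1 higher (14.5% of all) and 1 lower (13.7% of all). The median difference of the members averaged over treatments was log2 -0.02 with 7 arrays, against 0.07 over all tested probe sets, and -0.22 with 8, against 0.14. Groups without overlap were found for 6 of 9 members between the species without choice, against 63.4% of all tested probe sets: 4 were higher in sechellia (35.0% of all) and 2 lower (28.4%). With choice this held for 4 of 9, against 50.4%, of which 2 were higher (29.9%) and 2 lower (20.5%).

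Before any rescaling of the signals, choice left no member called in the fits counted here. In sechellia limma called 0 of 9 with 8 arrays, where it called 0.0533% of all, and 0 of 9 with 7 arrays (2.49% of all); 1 and 3 of 9 had an unadjusted p below 0.05, against 14.2% and 16.9% of all. In simulans it called 0 of 9 with 8 arrays (0.00761% of all) and with 7 (0.274% of all), with 1 and 2 of 9 below 0.05 unadjusted, against 1.85% and 14.9% of all. For the interaction it called 0 of 9 with 8 arrays (0.0152% of all) and with 7 (2.79% of all), with 0 and 4 of 9 below 0.05 unadjusted, where 6.84% and 17.2% of all were. The groups did not overlap for 6 of 9 members in sechellia (44.9% of all), 1 higher with choice (26.4%) and 5 lower (18.5%). This count includes array 1, and most members are brighter than most probe sets. With 8 arrays the median sechellia choice effect over all was log2 0.19, and -0.06 with a stricter brightness filter. It was -0.64 for TRiC and -0.57 for prefoldin, 2 chaperone lists described below. The share among probe sets as bright as the members was not tested. In simulans the groups did not overlap for 6 of 9 (47.2% of all), 2 higher (24.5%) and 4 lower (22.7%).

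In sechellia the choice effect of most members differed between the fits of 8 and 7 arrays, with exceptions in Hsp68, at -0.88 in both, and l(2)efl 1626416_a_at, at 0.27 and 0.34. The members' median was log2 -0.57, against 0.19 over all tested probe sets, and -0.07 against 0.04 with 7 arrays. On array 1 Hsp26 stood 2.51-fold, Hsp27 2.29-fold, Hsc70-3 2.25-fold, Hsp60A 1.98-fold and Hsc70-4 1.66-fold below array 2 of its group. By percentile among all probe sets of an array, 3 of these genes stood lower on array 1 than on any other: Hsp26 at 98.96 against 99.05 to 99.27, Hsp27 at 98.66 against 98.85 to 99.14, and Hsc70-3 at 95.82 against 97.20 to 97.70. Hsp60A, at 99.30, stood within its range of 99.22 to 99.35, and Hsc70-4, at 99.94, above its range of 99.74 to 99.86. So near the top of the scale a percentile moves little with the signal.

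**Figure D3:**
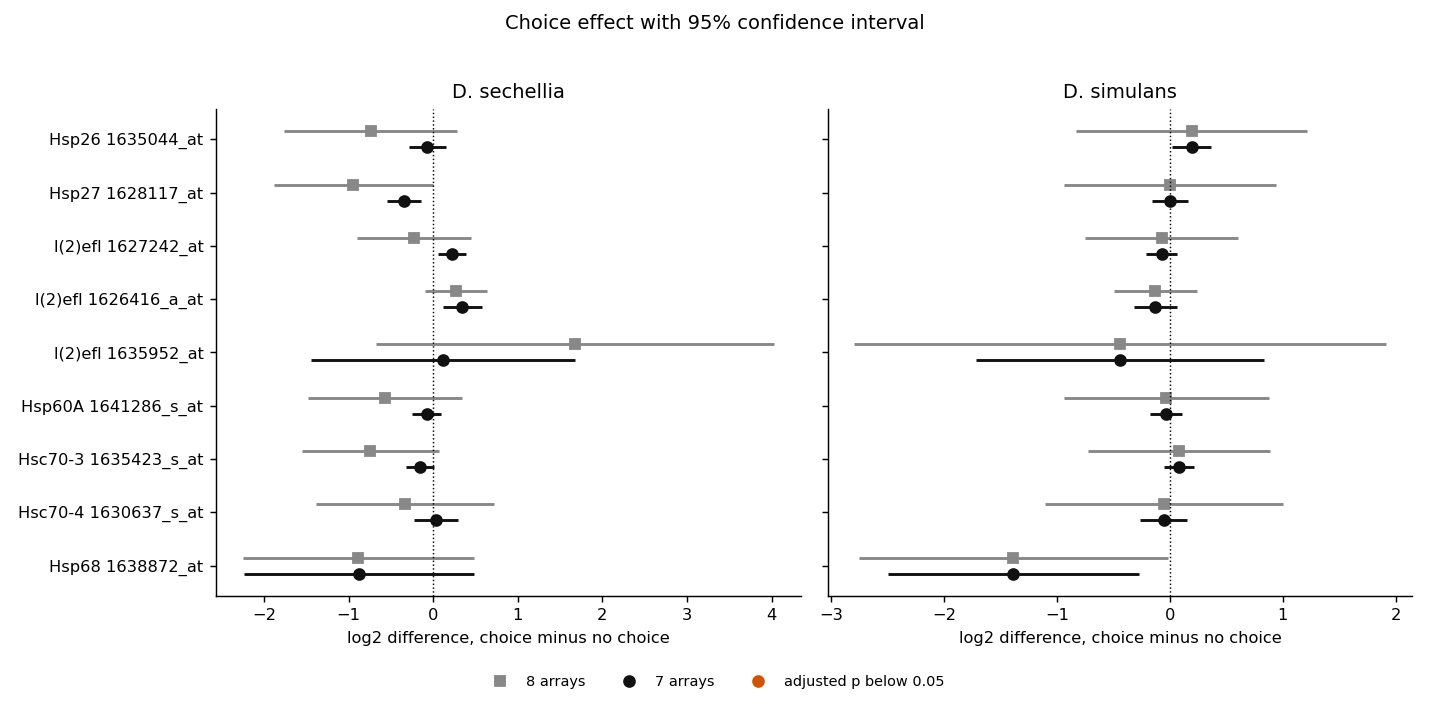
Log2 choice effect, choice minus no choice, of the 9 member probe sets in D. sechellia (left) and D. simulans (right), with 95% intervals from limma; squares are the fit of 8 arrays and circles that of 7. No member is marked as called, and in sechellia the Hsp27 effect is -0.94 with 8 arrays and -0.34 with 7.

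Other chaperone genes were taken from 5 lists, in which the brightest tested probe set stands for a gene. Among 11 other heat shock family genes 2 were lower in sechellia, averaged over treatments, and none higher with 8 arrays, and 3 were lower and 1 higher with 7. Hsp110, known also as Hsc70Cb, whose product exchanges the nucleotide of Hsp70 proteins, read 2609.4 and 2857.8 in sechellia no choice, 1669.9 and 1984.3 in sechellia choice, 3881.3 and 3774.9 in simulans no choice, and 4594.9 and 4486.6 in simulans choice. All sechellia arrays are below all simulans arrays. Hsp110 was lower in sechellia by log2 -0.90 ± 0.13 (n = 4 arrays per species; limma adjusted p = 0.0042) with 8 arrays and -0.84 ± 0.06 (adjusted p = 1.1e-05) with 7. With 7 arrays it also fell with choice in sechellia, by -0.46 ± 0.09 (adjusted p = 0.034), with 0.25 ± 0.07 (adjusted p = 0.17) in simulans, and the interaction of -0.71 ± 0.11 passed (adjusted p = 0.018). With 8 arrays that interaction was -0.83 ± 0.26 (adjusted p = 0.64).

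Hsc70-1, another Hsp70 cognate, was measured by 3 probe sets, which all read lower in sechellia. The brightest, 1639380_a_at, differed by log2 -0.74 ± 0.19 (limma adjusted p = 0.045) with 8 arrays and -0.54 ± 0.09 (adjusted p = 0.0018) with 7. The probe set 1636956_at differed by -0.78 ± 0.12 (adjusted p = 0.0054) and -0.76 ± 0.08 (adjusted p = 0.00014). The dimmest, 1627963_s_at, gave -1.16 ± 0.36 (adjusted p = 0.088) with 8 arrays and passed with 7, at -0.91 ± 0.26 (adjusted p = 0.027). On array 1 of sechellia choice it read 73.1, under that array's Bacillus median of 128.85, so the value with 8 arrays includes a signal below that of these controls.

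Of 24 co-chaperones of Hsp70 and Hsp90, 3 were lower in sechellia with 8 arrays (5.46% of all) and none was higher (4.41% of all). The fit of 7 called 3 lower (15.6% of all) and 5 higher (16.9% of all). Fkbp59, an immunophilin, read 1088.8 and 1313.0 in sechellia no choice, 2528.0 on array 2 and 1041.8 on array 1 of sechellia choice, and between 2918.2 and 3101.6 on the 4 simulans arrays. It was lower in sechellia by log2 -1.11 ± 0.26 (limma adjusted p = 0.033) with 8 arrays and -0.79 ± 0.08 (adjusted p = 9.4e-05) with 7. The arrays of sechellia choice differ widely for this gene: with 7 arrays it rose with choice in sechellia by 1.08 ± 0.12 (adjusted p = 0.0025), and with 8 the value was 0.44 ± 0.36 (adjusted p = 0.46). The J-domain proteins, which bring clients to Hsp70, include DnaJ-1 and mrj. DnaJ-1 was lower in sechellia by -0.64 ± 0.15 (adjusted p = 0.039) with 8 arrays and -0.52 ± 0.07 (adjusted p = 0.00053) with 7, and mrj by -0.64 ± 0.12 (adjusted p = 0.012) and -0.58 ± 0.06 (adjusted p = 0.00014).

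None of 8 subunits of TRiC, the cytosolic chaperonin, and none of 6 of prefoldin, which passes clients to it, was called by limma with 8 arrays; with 7 arrays 2 subunits of each were lower in sechellia. Of 11 genes of endoplasmic reticulum chaperones and the unfolded protein response, 1 was lower with 8 arrays, and 5 were higher and 2 lower with 7. The 1 called with 8 arrays is PEK, a kinase that senses unfolded protein in the endoplasmic reticulum, which read 149.9 and 73.9 in sechellia no choice and 424.0 and 400.9 in simulans no choice. It was lower in sechellia by log2 -1.37 ± 0.34 (limma adjusted p = 0.043) with 8 arrays and -1.69 ± 0.24 (adjusted p = 0.00074) with 7. On array 1 of sechellia choice it read 411.0, against 171.1 on array 2. The median species difference with 7 arrays was 0.21 for the other heat shock family, 0.01 for the co-chaperones, -0.04 for TRiC, -0.16 for prefoldin and 0.21 for the endoplasmic reticulum list, against 0.07 over all tested probe sets. With 8 arrays these medians were -0.04, -0.08, -0.30, -0.43 and 0.11, against 0.14. Gp93 counts in both the other heat shock family and the endoplasmic reticulum list, and the former includes the dim genes Hsp60B, Hsp60D and CG13133. Among all tested probe sets, the fit of 8 arrays called 4.41% higher in sechellia and 5.46% lower; that of 7 called 16.9% higher and 15.6% lower. The 6 genes named from the lists kept a negative difference in all 20 alternatives each; after median centring of 8 arrays, limma no longer called Hsp110, Hsc70-1, Fkbp59, DnaJ-1 and mrj, and without an intensity trend it no longer called Hsc70-1, Fkbp59, DnaJ-1, mrj and PEK. Those 5 also lost their call when any 1 of the 6 arrays outside sechellia choice was left out, and over all alternatives their highest adjusted p was 0.20, 0.15, 0.21, 0.11 and 0.18 in that order, against 0.063 for Hsp110. With 8 arrays Hsc70-1 further lost its call after quantile normalisation, DnaJ-1 without the brightness filter and with the replicate block, and PEK with array weights.

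**Figure D4:**
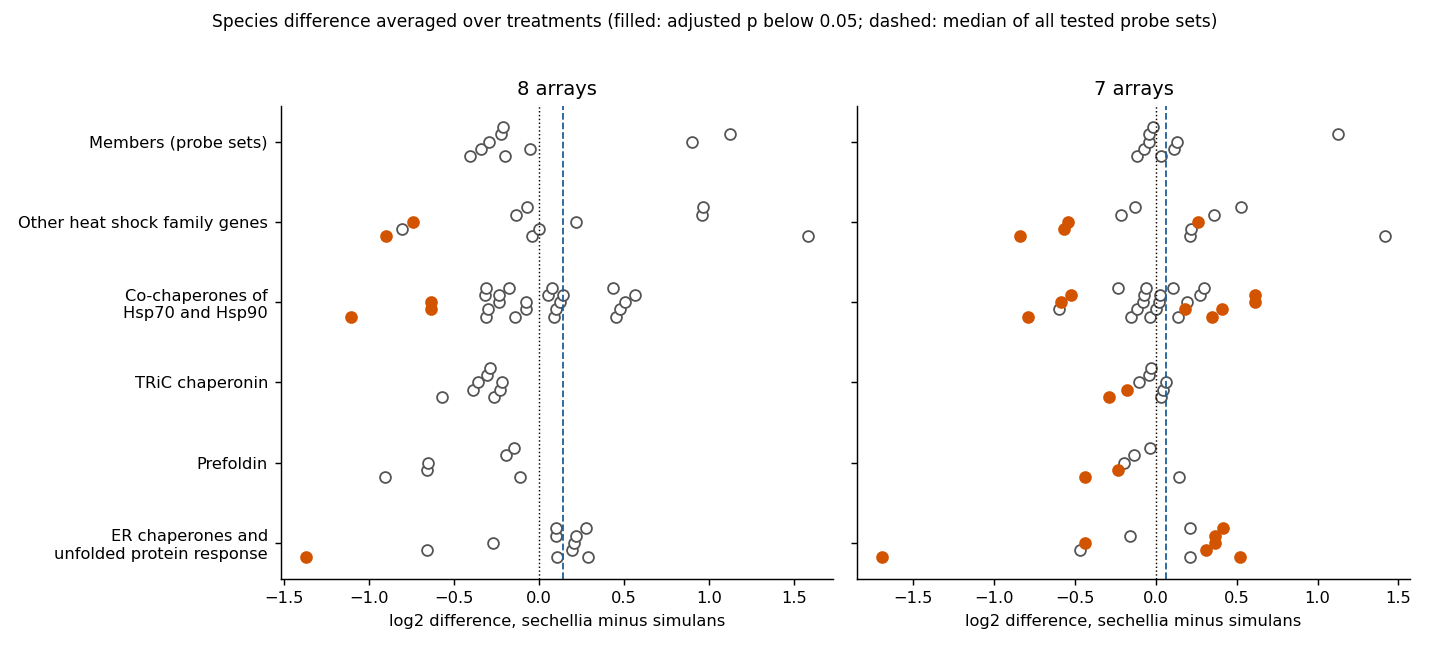
Log2 species difference averaged over treatments for the 9 member probe sets and for each tested gene of the 5 other lists, with 8 arrays (left) and 7 (right); filled circles have a limma adjusted p below 0.05 and the dashed line is the median of all 13138 tested probe sets. With 8 arrays the 6 filled genes all lie below 0, and with 7 no member is filled.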

How the data were processed

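The deposited values are probe-set intensities on a linear scale; the submitters' processing notes name MAS5 without version or settings; per the labels' protocols, cRNA was made from 7 micrograms of total RNA. The intensities were used as deposited, since the mean with 2% trimmed at each end was 500.0 on every array, and taken to log2. Tests left out 183 control probe sets and, of the others, the dimmest 30% (geometric mean signal under 49.9). Cell means of 4 groups were fitted with limma 3.58.1 in R 4.3.3 (eBayes with an intensity trend; 4 residual degrees of freedom with 8 arrays, 3 with 7). Intervals are at 95%. The number of arrays limits the precision, and in the fit of 8 so does the deviation of array 1 of sechellia choice. For Hsp60A averaged over treatments the SE was 0.28 with 8 arrays and 0.05 with 7. The fit was tried on data simulated for the species difference averaged over treatments, with 100 of 13138 probe sets changed at each size. It recovered 30% of changes of log2 1 with 8 arrays and 61% with 7, and 67% and 90% of changes of log2 2. The share changed was smaller than the 9.87% and 32.5% called in the data with 8 and 7 arrays, so recovery there may differ. The simulated arrays of a fit all had the same spread, so a deviating array was not represented. Members and lists were chosen with earlier results of these data known. Genes of the lists are named where called with 8 arrays, up to 4 per list. Alternatives changed scaling, filter, trend, weights, samples and replicate block. The annotation gives D. melanogaster symbols and is old.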

Additional observations from a re-analysis of the deposited data

How the results depend on the processing

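With 8 arrays, 0 of 9 members were called in each of the 6 comparisons, and this held for the choice effect in simulans under all alternatives run. Leaving out 1 array at a time gave 0 to 8 called for the species difference averaged over treatments, 0 to 3 without choice, 0 to 7 with choice, 0 to 7 for the choice effect in sechellia and 0 to 7 for the interaction. The highest counts are those without array 2 of sechellia choice, where array 1 alone stands for its group and the shares of all probe sets called were, in the same order, 62.1%, 28.1%, 68.4%, 66.0% and 55.6%; no call came from leaving out any of the 6 arrays of other groups. Quantile normalisation and cyclic loess each gave 1 call in the species difference with choice, Hsp27 (4.92% and 9.10% of all), and the fit of only the arrays compared gave 1 without choice, Hsp68 (26.5% of all). With 7 arrays and quantile normalisation the counts were 2 averaged over treatments, 4 without choice, 3 with choice, 1 for the choice effect in sechellia and 1 for the interaction, where 33.6%, 28.9%, 20.7%, 3.14% and 3.17% of all were called. With 7 arrays and median centring they were 1 without choice, 1 with choice and 1 for the choice effect in sechellia (27.8%, 18.7% and 4.05% of all). Hsp26 averaged over treatments turned from -0.20 to a called 0.11 with 7 arrays and quantile normalisation (adjusted p = 0.041); leaving out array 1 alone gave 0.13 (adjusted p = 0.14) and quantile normalisation of 8 arrays alone 0.03 (adjusted p = 0.80).

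With the replicate block 0 members were called with 8 arrays in any comparison, and with 7 arrays 1 averaged over treatments, 1 with choice and 2 without (31.2%, 17.3% and 28.1% of all). Same-numbered arrays did not deviate together, at r -0.12 to 0.05 between groups, so the numbers are not taken as pairs. Array weights came out equal within each group of 2. Over all 13138 probe sets the count called moved from 1297 to between 472 and 8160 for the averaged species difference, from 554 to between 107 and 3803 without choice, from 544 to between 19 and 8980 with choice, from 7 to between 0 and 8671 for choice in sechellia, from 1 to between 0 and 157 for choice in simulans, and from 2 to between 0 and 7300 for the interaction. Scaling moved the median choice effect in sechellia over all tested probe sets from 0.19 to -0.02 by quantile normalisation and to -0.24 by median centring.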

Other observations

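With 7 arrays more chaperone genes were called than with 8, as were more of all tested probe sets. For the averaged species difference 32.5% of all were called with 7 arrays, against 9.87% with 8. The genes named here were chosen after their values were seen. The small heat shock gene CG7409, of the alpha-crystallin family, read 2890.7 and 2851.5 in sechellia no choice, 4643.8 and 5055.7 in simulans no choice, 4732.8 and 4671.8 in simulans choice, and 3624.7 on array 2 and 1854.7 on array 1 of sechellia choice. It was lower in sechellia by log2 -0.57 ± 0.05 (limma adjusted p = 8.2e-05) with 7 arrays, and gave -0.81 ± 0.21 (adjusted p = 0.053) with 8. CG1416, a relative of the Hsp90 activator Aha1, was higher in sechellia by 0.61 ± 0.06 (adjusted p = 0.00014) with 7 arrays and gave 0.47 ± 0.16 (adjusted p = 0.12) with 8. Hsc20, a J-domain protein of iron-sulfur cluster assembly, was higher by 0.62 ± 0.10 (adjusted p = 0.0019) with 7 and gave 0.43 ± 0.19 (adjusted p = 0.21) with 8.

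The transcription factor gene crc, the ATF4 relative of the integrated stress response, read 1921.4 and 1998.9 in sechellia no choice and 3363.7 and 3205.2 in simulans no choice. With choice it read 2694.1 and 2526.8 in simulans, and 2387.0 on array 2 and 1273.9 on array 1 of sechellia. Without choice it was lower in sechellia by log2 -0.74 ± 0.07 (limma adjusted p = 0.00012) with 7 arrays, and with choice it gave -0.13 ± 0.09 (adjusted p = 0.37). The interaction passed with 7 arrays, at 0.62 ± 0.11 (adjusted p = 0.032), and gave 0.16 ± 0.39 (adjusted p = 0.86) with 8, so it rests on array 2 of sechellia choice.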
